A study of Mus musculus with 2 samples.

Results

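The Mir302-Mir367 and Mir290-Mir295 clusters are the groups of microRNA (miRNA) genes best known from mouse embryonic stem cells, and their reads were measured here in embryonic heart. Of 1973 miRNA genes listed by the study, 10 were taken by name: Mir302b, Mir302c, Mir302a, Mir302d and Mir367 of the first cluster, and Mir291a, Mir291b, Mir293, Mir294 and Mir295 of the second. All 10 were listed. The data are 2 microRNA-seq libraries from pools of hearts of healthy B6NCrl mouse embryos of both sexes at embryonic day 16.5 (E16.5), with no genetic change and no treatment named. The libraries are labelled biological replicates of 1 group. Replicate 2 pooled 41 embryos; for replicate 1 the labels say only that hearts were pooled. Whole hearts were used, so fewer cells of a type and less miRNA per cell cannot be told apart.

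A miRNA gene is transcribed as a longer RNA that folds into a hairpin, from which a mature strand of the 5p or the 3p arm is cut. Genes that lie close together on 1 strand, as in these clusters, are usually cut from a shared transcript. A mature miRNA finds its target messenger RNAs mainly through its seed, bases 2 to 8 from its 5′ end, so miRNAs of 1 seed can repress overlapping sets of targets. In stem cells both clusters are switched on by the pluripotency factors, and their shared seed is known for speeding entry into S phase and for opposing the differentiating action of let-7. In the heart, the Mir302-Mir367 cluster is known for promoting division of young heart muscle cells through repression of Hippo pathway kinases.

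Mature sequences that carry or resemble that shared seed are given below as RefSeq lists them for build GRCm38.p6, the build called mm10 in the study, 5′ to 3′ with the seed in capitals. RefSeq held 19 mature sequences for the 10 genes. The 3p sequences of Mir302b, Mir302d and Mir302c are nearly the same after the seed, and miR-302a-3p is known as a member of the same seed family.
miR-302b-3p: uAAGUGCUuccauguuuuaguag
miR-302d-3p: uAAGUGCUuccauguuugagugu
miR-302c-3p: aAGUGCUUccauguuucagugg
The 3p sequences of the Mir290-Mir295 cluster follow, the first 3 with the seed of miR-302b-3p and miR-302d-3p.
miR-291a-3p: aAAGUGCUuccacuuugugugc
miR-294-3p: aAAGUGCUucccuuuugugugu
miR-295-3p: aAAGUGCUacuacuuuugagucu
miR-291b-3p: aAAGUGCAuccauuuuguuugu
miR-293-3p: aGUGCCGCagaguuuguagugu
The last member of the Mir302-Mir367 cluster has a seed of another family.
miR-367-3p: aAUUGCACuuuagcaaugguga

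With positions counted from 1 at the 5′ end of miR-302b-3p, miR-302d-3p was identical to it at 20 of 23 bases and first differed by U18G. The listed miR-302c-3p begins 1 base further in, so its bases 2 to 8 are shifted against the others. Read from the second base of miR-302b-3p, it matched 20 of 22 bases. Counted on miR-291a-3p, miR-291b-3p differed at 4 of 22 bases, of which U8A lies in the seed. Likewise counted on miR-291a-3p, miR-294-3p differed at 3 of 22 bases and kept the seed. The counts below are per gene, so they do not say from which arm the reads came.

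The 3 genes chosen as heart muscle markers were high in both libraries. Levels are given as CPM, counts per 1000000 sense-strand counts at miRNA genes. The sense totals were 6473482 counts in replicate 1 and 5841568 in replicate 2. Where a gene had 0 counts, a limit of 3 counts was taken, or 0.463 CPM and 0.514 CPM in the 2 libraries. Such limits and all intervals cover counting error only. The heart muscle genes Mir208a, Mir208b and Mir499 summed to 67703 CPM and 67120 CPM. Other muscle miRNA genes were not in this list, and Mir1a-1 (19 and 11 counts) and Mir133a-1 (19 and 14 counts) were low. Whether their reads were lost by matching more than 1 place was not tested. Detected genes are those whose counts reached 10 in both libraries. The 5 neural markers measured are copies of miR-124 or miR-9 whose hairpins share 20 or more bases with other hairpins, and reads matching more than 1 place were counted nowhere. Their counts, 0 or 1 apart from Mir9-3 with 16 in replicate 1 and 1 in replicate 2, therefore say nothing on neural RNA in these libraries.

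The Mir302-Mir367 cluster was present at a low level and the Mir290-Mir295 cluster at a far lower one. The 5 Mir302-Mir367 genes summed to 3924 and 3120 counts, or 606 CPM and 534 CPM (570.1 ± 51.0, SD, n = 2). That is 0.0606% of sense counts in replicate 1 (Wilson 95% interval 0.0587 to 0.0625) and 0.0534% in replicate 2 (0.0516 to 0.0553). The 5 Mir290-Mir295 genes summed to 150 and 107 counts, or 23.2 CPM and 18.3 CPM (20.7 ± 3.43, SD, n = 2). Within a library the first cluster exceeded the second 26.2-fold in replicate 1 and 29.2-fold in replicate 2. On the log2 scale these ratios had exact Clopper-Pearson 95% intervals of 4.47 to 4.95 and 4.59 to 5.16, which overlap. Without the genes that share a 20-base sequence with another hairpin (Mir302a, Mir302b, Mir291a and Mir291b), the mean log2 ratio was 3.41 instead of 4.79, still in favour of the Mir302-Mir367 cluster.

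**Figure D1:**
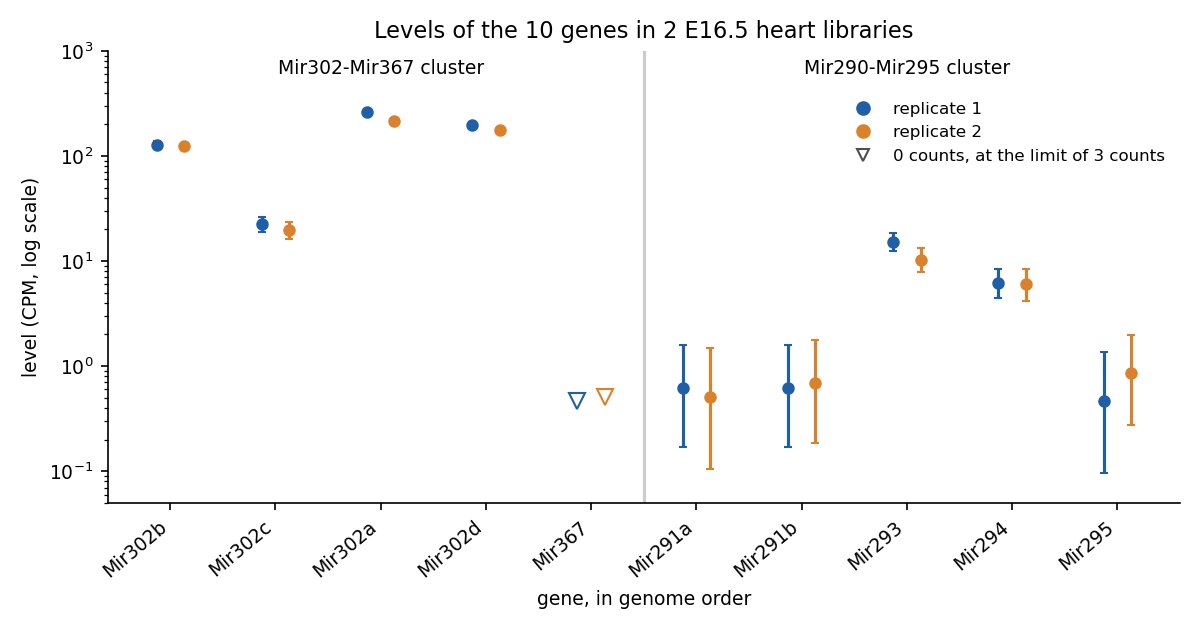
Level of each of the 10 genes in CPM on a log axis, in genome order, for replicate 1 (blue) and replicate 2 (orange), with exact 95% counting intervals as bars. The Mir302 genes lie between 19.5 and 261 CPM, Mir293 and Mir294 between 5.99 and 15.3 CPM, and Mir367, with 0 counts, is drawn at the limit of 3 counts as open triangles.

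Of the 10 genes, 6 were detected: Mir302a, Mir302b, Mir302c and Mir302d of the first cluster and Mir293 and Mir294 of the second. Another 3 (Mir291a, Mir291b and Mir295) had 3 to 5 counts in each library, and Mir367 had 0 in both. No opposite-strand count was found at any of the 10 genes in either library.

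Mir302a, the gene of miR-302a-3p, a stem cell miRNA that promotes cell cycling, was the highest of the 10. It had 1687 counts in replicate 1 and 1261 in replicate 2, or 261 CPM and 216 CPM (238 ± 31.6, SD, n = 2). By mean CPM it stood at rank 139 of 365 detected genes, so it lay above 61.9% of them. Mir302d, which carries the shared seed, followed with 1262 and 1024 counts, or 195 CPM and 175 CPM (185 ± 13.9, SD, n = 2; rank 150). The values of Mir302a and Mir302d did not overlap between libraries, and Mir302a was the higher 1.34-fold in replicate 1 and 1.23-fold in replicate 2. Their log2 ratio was 0.42 (exact 95% interval 0.31 to 0.53) and 0.30 (0.18 to 0.42).

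Mir302b, the first hairpin of the cluster and also a carrier of the shared seed, had 830 and 721 counts, or 128 CPM and 123 CPM (126 ± 3.39, SD, n = 2; rank 175). Mir302a exceeded it 2.03-fold and 1.75-fold, with log2 ratios of 1.02 (0.90 to 1.14) and 0.81 (0.67 to 0.94). Mir302c stood well below its neighbours, with 145 and 114 counts, or 22.4 CPM and 19.5 CPM (20.96 ± 2.04, SD, n = 2; rank 252). Mir302a exceeded Mir302c 11.6-fold and 11.1-fold, the widest ratio among the 4 Mir302 genes. Among counted reads, the order Mir302a, Mir302d, Mir302b, Mir302c thus held in both libraries. The CPM values of each gene did not overlap those of the next in that order.

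The make-up of the Mir302-Mir367 cluster was close in both libraries. Mir302a held 43.0% of its counts in replicate 1 (Wilson 95% interval 41.5 to 44.5) and 40.4% in replicate 2 (38.7 to 42.1). Mir302d held 32.2% and 32.8%, and Mir302b 21.2% and 23.1%. Mir302c held 3.70% and 3.65%. For each of these 4 genes the intervals of both libraries overlapped. Overlap does not exclude a small difference, and the shares were not tested between libraries.

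Mir367, the last hairpin and the only one of the cluster with the seed AUUGCAC, was not detectable at this depth. At the limit of 3 counts, its share of the counts of the cluster would be 0.0765% in replicate 1 and 0.0962% in replicate 2. The Wilson intervals of its share reached higher, to 0.0978% in replicate 1 and 0.123% in replicate 2. Mir302a stood 562-fold above that limit of 3 counts in replicate 1 and 420-fold above it in replicate 2. The exact intervals of the ratio of Mir302a over Mir367 began below these folds, at log2 values of 8.84 in replicate 1 and 8.42 in replicate 2.

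The hairpins of the cluster lie on the plus strand of chromosome 3, in an intron of Larp7 but on the opposite strand to it. Larp7 encodes a binding protein of the 7SK RNA. The order is Mir302b (ENSMUSG00000076252.1, chr3:127545228-127545301), Mir302c (ENSMUSG00000065482.1, chr3:127545363-127545430), Mir302a (ENSMUSG00000065552.1, chr3:127545496-127545564), Mir302d (ENSMUSG00000065447.1, chr3:127545624-127545689) and Mir367 (ENSMUSG00000065413.2, chr3:127545733-127545807). They span 580 bases, with gaps of 43 to 65 bases. The levels did not run evenly along this order: the second hairpin was low and the third the highest.

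**Figure D2:**
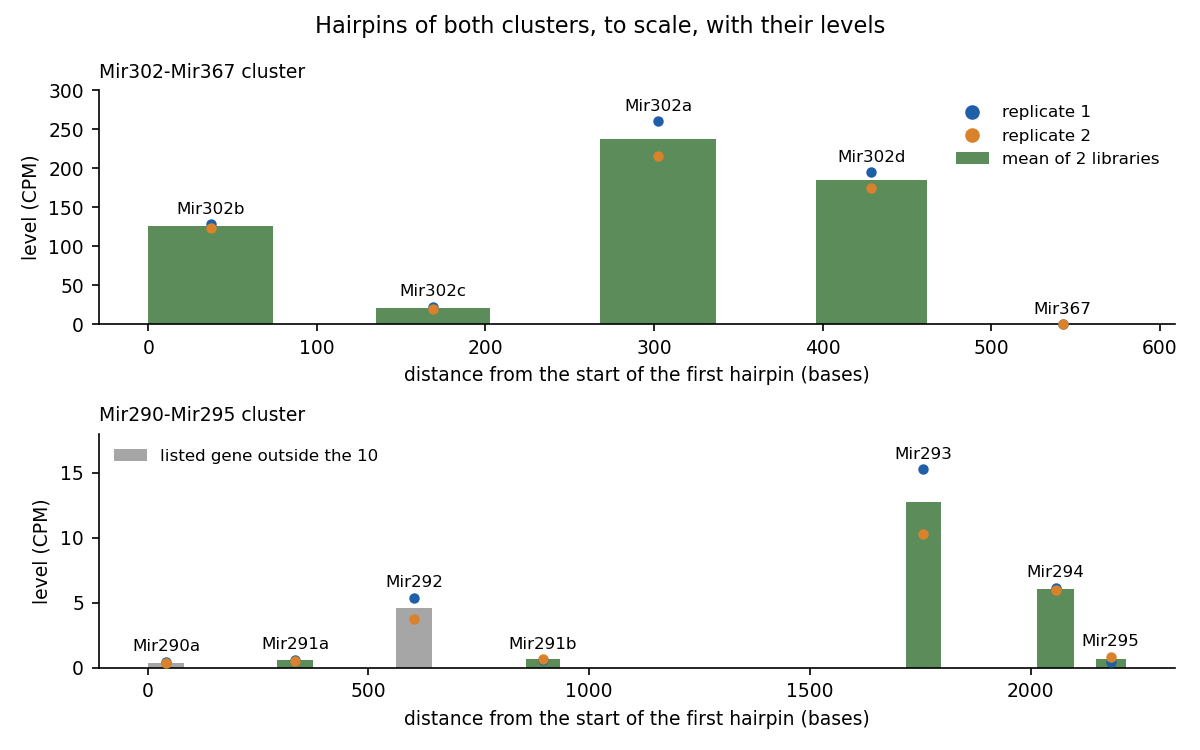
Hairpins of the Mir302-Mir367 cluster (top) and the Mir290-Mir295 cluster (bottom), drawn to scale by their distance in bases from the start of the first hairpin; bar height is the mean CPM of the 2 libraries and points are each library. In the lower panel the levels are highest at Mir293 (12.8 CPM on average), and grey bars are the listed genes Mir290a and Mir292, which are not among the 10.

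Mir293 led the Mir290-Mir295 genes, although its 3p seed GUGCCGC differs from those of the other 4. It had 99 counts in replicate 1 and 60 in replicate 2, or 15.3 CPM and 10.3 CPM (12.8 ± 3.55, SD, n = 2; rank 270). Mir294, which carries the shared seed and is one of the main miRNAs of mouse stem cells, had 40 and 35 counts, or 6.18 CPM and 5.99 CPM (6.09 ± 0.13, SD, n = 2; rank 300). The log2 ratio of Mir294 over Mir293 was -1.31 (exact 95% interval -1.88 to -0.76) in replicate 1 and -0.78 (-1.42 to -0.15) in replicate 2. Mir293 was thus the higher in both libraries, and the intervals of both ratios overlapped.

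The other 3 genes of the cluster were near the limit of the depth. Mir291a had 4 and 3 counts (0.618 CPM and 0.514 CPM), Mir291b 4 in each library (0.618 CPM and 0.685 CPM) and Mir295 3 and 5 (0.463 CPM and 0.856 CPM). All 3 carry a seed that begins with the same AAGUGC. Their counting intervals overlapped in both libraries, so they could not be ordered. Mir291a stood below Mir294 with log2 ratios of -3.32 (-5.27 to -1.85) and -3.54 (-5.89 to -1.88). Mir295 stood below Mir293 with log2 ratios of -5.04 (-7.35 to -3.46) and -3.58 (-5.26 to -2.28).

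Mir290a and Mir292, also listed at this locus, were measured beside the 10. Mir292 had 35 and 22 counts (5.41 CPM and 3.77 CPM), close to Mir294, and Mir290a 3 and 2. With them the cluster held 188 and 131 counts. RefSeq lists for miR-290a-5p, miR-292a-5p and miR-293-5p 1 shared seed, CUCAAAC. The 3 genes with that seed summed to 21.2 CPM and 14.4 CPM.

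The Mir290-Mir295 hairpins lie on the plus strand of chromosome 7, where the annotation has an exon of Nlrp12 on the opposite strand. Nlrp12 encodes an innate immune sensor. The order is Mir291a (ENSMUSG00000078008.1, chr7:3218919-3219000), Mir291b (ENSMUSG00000078032.1, chr7:3219482-3219560), Mir293 (ENSMUSG00000078035.1, chr7:3220343-3220422), Mir294 (ENSMUSG00000077903.1, chr7:3220641-3220724) and Mir295 (ENSMUSG00000077886.1, chr7:3220773-3220841). From Mir290a to Mir295 the cluster spans 2216 bases, and the widest gap, 782 bases, lies between Mir291b and Mir293. Both detected members, Mir293 and Mir294, lie after that gap, but so does Mir295, which stood at 3 and 5 counts. Mir292, listed at this locus but not taken as a member, lies before the gap, between Mir291a and Mir291b. It was also detected, with 35 counts in replicate 1 and 22 in replicate 2, so detection was not confined to hairpins after the gap.

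Multimapping reads, 29.5% and 31.9% of all reads, were assigned to no gene. The hairpins of Mir302a and Mir302b share a run of 20 bases, as do those of Mir291a and Mir291b. Any reads confined to such a run would be missing from both genes of a pair, so their levels are uncertain. The longest run of Mir302d shared with another of 2196 compared hairpins was 17 bases and that of Mir302c 16 bases, each within the cluster. For Mir293, Mir294, Mir295 and Mir367 it was 10 to 13 bases. These runs are exact matches, and how reads with mismatches were placed is not given. The listed miR-302b-3p and miR-302d-3p are identical over their first 17 bases, and miR-302c-3p is nearly the same. Short or mismatched reads could thus be missing from Mir302c and Mir302d as well, so their levels are uncertain too.

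Summed, genes of other clusters with related seeds were more abundant in these hearts than the Mir302-Mir367 genes, though not each single gene was. The miR-17 family, known for driving growth of many embryonic tissues, has the seed AAAGUGC, which holds the first 6 bases of the shared seed 1 position later.
miR-17-5p: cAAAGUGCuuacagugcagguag
Its 6 genes Mir17, Mir20a, Mir20b, Mir93, Mir106a and Mir106b summed to 25195 CPM and 30102 CPM. They exceeded the Mir302-Mir367 cluster 41.6-fold in replicate 1 and 56.4-fold in replicate 2. Most of this came from Mir17 (12548 CPM and 14230 CPM), Mir93 (4701 CPM and 6002 CPM), Mir20a (4544 CPM and 5794 CPM) and Mir106b (3110 CPM and 3267 CPM).

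The order of Mir302a against the 2 lowest genes of the miR-17 family differed between libraries. In replicate 1 Mir302a (261 CPM) lay above Mir106a (171 CPM) and Mir20b (122 CPM). In replicate 2 Mir302a (216 CPM) lay below both, at 447 CPM and 363 CPM. Mir20b was 3.02-fold and Mir106a 2.66-fold higher in replicate 2, while Mir302a was 1.19-fold lower. The hairpins of the 6 family genes share runs of 13 to 17 bases with other hairpins, under the 20 bases taken as a risk of shared reads. This measure counts exact runs only. RefSeq lists nearly the same sequence for miR-17-5p and miR-106a-5p, and how reads with mismatches were placed is not given.

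Other genes that encode the seed of miR-367-3p were detected in these hearts, although gene counts do not show which arm was read.
miR-92a-3p: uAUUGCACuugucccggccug
miR-25-3p: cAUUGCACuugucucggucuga
miR-363-3p: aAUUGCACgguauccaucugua
The 6 other genes with this seed were all detected and summed to 2877 CPM and 2894 CPM. They were Mir92-1 (1962 CPM and 1925 CPM), Mir25 (298 CPM and 338 CPM), Mir363 (146 CPM and 289 CPM), Mir92b (257 CPM and 84.2 CPM), Mir92-2 (96.2 CPM and 156 CPM) and Mir32 (117 CPM and 103 CPM). RefSeq lists the same miR-92a-3p at Mir92-1 and at Mir92-2, so reads of that sequence alone cannot be placed, and their hairpins share a run of 22 bases. RefSeq lists the seed of miR-291b-3p also for miR-350-5p. Its gene Mir350, at 238 CPM and 399 CPM, stood far above Mir291b, with the arm of these reads unknown.

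**Figure D3:**
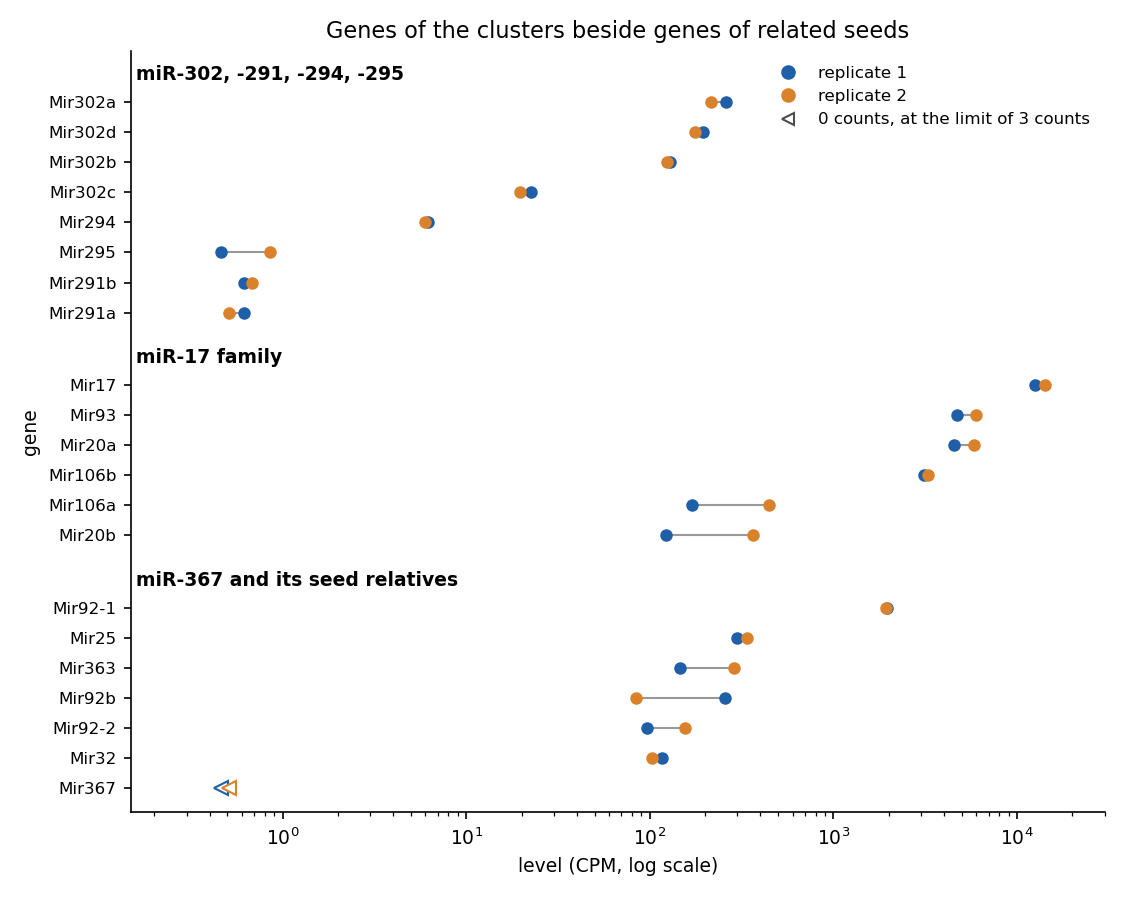
Level in CPM on a log axis of genes of both clusters, of the miR-17 family and of miR-367 with its seed relatives, in replicate 1 (blue) and replicate 2 (orange), joined by a line. Mir302a, at 261 and 216 CPM, lies above Mir106a and Mir20b in replicate 1 and below them in replicate 2; open triangles mark the 0 counts of Mir367 at the limit of 3 counts.

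The summed Mir302-Mir367 counts were slightly lower in replicate 2, by more than counting error, and none of the 10 genes was called at 2-fold. The log2 ratio of replicate 2 over replicate 1 was computed from counts scaled by TMM (a method that sets the bulk of genes equal) with 0.5 added. It was -0.16 for the Mir302-Mir367 sum (exact 95% interval -0.23 to -0.089) and -0.31 for the Mir290-Mir295 sum (-0.69 to 0.054). Per gene it was -0.25 for Mir302a, -0.13 for Mir302d, -0.17 for Mir302c, -0.029 for Mir302b, -0.54 for Mir293 and -0.016 for Mir294. All 6 detected members thus had values under 0, as had 47.1% of all 365 detected genes, and their median was -0.15 against 0.018 for all detected genes. Neighbouring hairpins can share a transcript, so the 6 are not independent. The median absolute log2 ratio was 0.15 for the 6 and 0.21 for all detected genes.

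The libraries were tested gene by gene with an exact binomial test (two-sided), and p-values were adjusted over all 365 detected genes (Benjamini-Hochberg). This compares the 2 libraries and not conditions, and its p-values rest on counting error alone. With a minimum of 2-fold, 0 of the 6 members and 12 of all 365 genes passed (3.29%). Without a minimum fold, 2 of the 6 members passed, against 46.3% of all detected genes. An unadjusted p under 0.05 was found for 3 of the 6 and for 190 of all 365 detected genes. By the exact binomial test Mir302a was 1.19-fold lower in replicate 2 (adjusted p = 1.49e-05) and Mir293 1.46-fold lower (adjusted p = 0.0457). Both passed in the lower direction, as did 20.3% of all detected genes. Mir293 did not pass by the same exact test with no filter on low counts (adjusted p = 0.0845). Mir302d, 1.09-fold lower, did not pass with an adjusted p of 0.0721 by the exact test, but passed with total-count scaling (0.0274) and with DESeq2 size factors (0.0374). Mir302b, Mir302c and Mir294 had adjusted p-values of 0.807, 0.481 and 1 by the exact test.

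**Figure D4:**
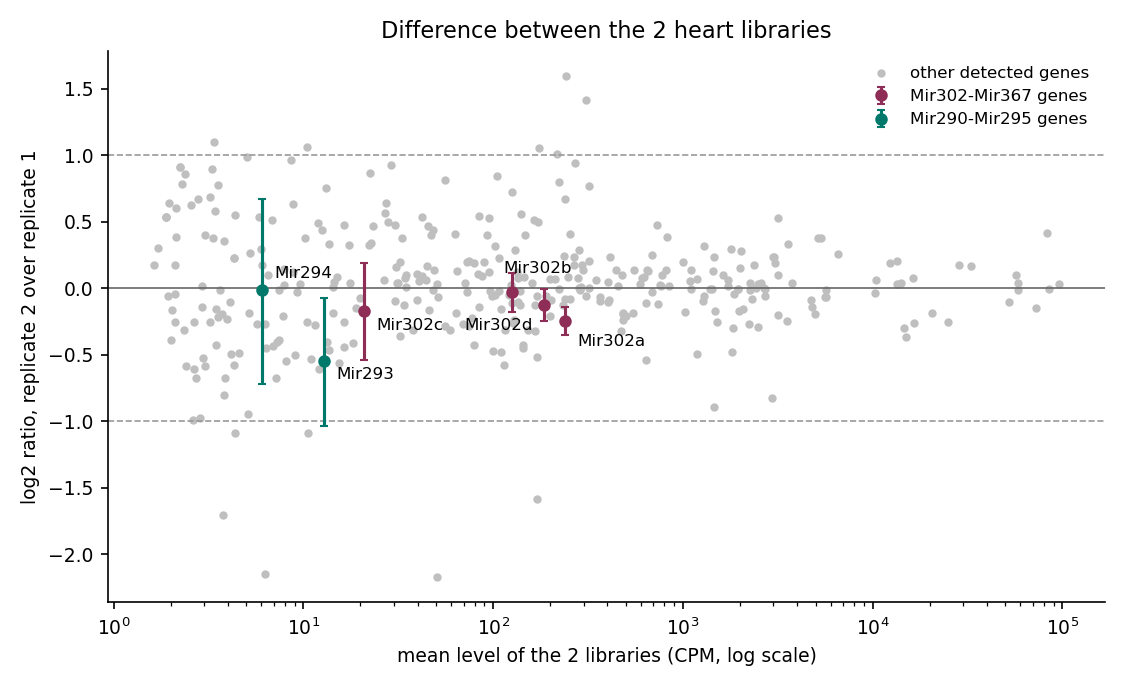
Log2 ratio of replicate 2 over replicate 1 against mean CPM (log axis) for all 365 detected genes, with the 6 detected members in colour and exact 95% counting intervals as bars; dashed lines mark 2-fold. The members lie between -0.54 and -0.016, inside the 2-fold lines.

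Of the marker lists of other cells, the epithelial one differed between the libraries at most of its genes. The 6 epithelial genes Mir200a, Mir200b, Mir200c, Mir141, Mir429 and Mir205 were all detected and summed to 5240 CPM in replicate 1 and 4073 CPM in replicate 2. Of these, 5 fell in replicate 2 by the same test without a minimum fold and 1, Mir205, rose, by 0.48 on the log2 scale. Among all 365 detected genes, 46.3% passed this test, 20.3% of them all in the lower direction. The 5 that fell had log2 ratios from -0.48 (Mir429) to -0.54 (Mir200b), further from 0 than those of the Mir302 genes. Mir293, at -0.54, lay as far from 0 as Mir200b. Of the erythroid genes, Mir451a fell in replicate 2 by 0.26 on the log2 scale (exact binomial test, adjusted p = 7.49e-33), while Mir144 had a log2 ratio of -0.065 and did not pass (adjusted p = 0.225). The endothelial Mir126a (log2 ratio -0.0026, adjusted p = 0.487 by the exact test) and the liver gene Mir122 (0.038, adjusted p = 0.695) did not pass either. The smooth muscle gene Mir143 rose by 0.033 on the log2 scale (adjusted p = 2.61e-34 by the exact test). The part of epithelial or erythroid cells in the small difference of Mir302a and Mir293 between libraries was not tested.

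Genes nearest to the leading members by level were found by the distance of log2(CPM + 1) over the 2 libraries. For Mir302a they were Mir96 (245 CPM and 220 CPM), Mir543 (250 CPM and 232 CPM) and Mir421 (263 CPM and 244 CPM). For Mir293 they were Mir1968, Mir34b and Mir3072, with 14.7 to 15.9 CPM in replicate 1 and 9.42 to 11.3 CPM in replicate 2. With 2 libraries this describes similar levels and nothing more.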

How the data were processed

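Small RNA of total RNA from E16.5 hearts was sequenced in 2 libraries. The authors deposited raw counts of reads per miRNA gene, on build mm10 with annotation M4 per the lists of files deposited with each library. Not given in the sources used here are the aligner, the counter and any trimming. The tables have 3 count columns, for either strand and for each strand; of the last 2, the one that summed higher over genes in both libraries was used as sense. The lines that name no gene held 22.4% and 17.2% (unmapped), 29.5% and 31.9% (several places) and 2.99% and 2.66% (no listed gene) of 15207730 and 12885555 reads, and stayed out of totals.

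Genes were matched to GENCODE M21 of the same build, which held 1894 of 1973, and mature sequences to RefSeq. CPM used sense totals. TMM (edgeR 4.0.16) and DESeq2 1.42.0 size factors came from R 4.3.3, other steps from Python 3.11.15 and scipy 1.17.1. With 1 group edgeR's own test had nothing to compare, so libraries were compared by the exact binomial test. It was tried on simulated counts that held counting error only. That simulation cannot show how the test behaves with spread between pools. The members and lists were chosen with earlier results of these data known. Named genes were all members, genes of their seeds, markers and nearest genes by level. Separate pools are labelled biological replicates, and p-values measure counting error. Alternatives were other scalings, filters, strands, totals, pseudocounts and leaving out each library.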

Additional observations from a re-analysis of the deposited data

How the results depend on the processing

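No paired analysis was possible because the design has a single group. Detection of 6 members held with at least 5 counts, with reads of either strand and in either library alone; 9 members had at least 1 count and 4 at least 100 counts in each library, and 0 were detected on the opposite strand. The share of the Mir302-Mir367 cluster was 0.0631% without the most abundant gene in the total and 0.0250% of all reads, instead of 0.0570%. The Mir290-Mir295 share was 0.000908% of all reads, and 0.00257% with Mir290a and Mir292, a choice made after seeing the data, instead of 0.00207%. The log2 ratio of the clusters, 4.79, was 3.41 without members that share a 20-base sequence, 3.64 from mean log2(CPM + 1) over members and 4.48 with Mir290a and Mir292. It kept its sign in each of these. Genes past the library test numbered 21 of 725 tested with no filter on low counts, instead of 12 of 365. Without a minimum fold 169 of the 365 detected genes and 2 members passed. No log2 ratio between libraries changed sign under the scalings and pseudocounts tried. Depth limits Mir291a, Mir291b, Mir295 and Mir367.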
